A study of Homo sapiens with 30 samples.

Results

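The SUMO proteases described here were 8 genes of the 30373 in the deposited expression table: SENP1, SENP2, SENP3, SENP5, SENP6, SENP7, DESI2 and USPL1. They were chosen by name, as enzymes that cleave SUMO or are related to such enzymes, and each had 1 row. All 8 reached 1 FPKM in all 30 libraries and passed the filter on low values. FPKM counts sequenced fragments per kilobase of transcript and per size of the library, so levels can be set side by side between genes.

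Polyadenylated RNA came from 3 human lines given ML-792, listed as ML00754792, which blocks the SUMO-activating enzyme, or 0.01% DMSO, the solvent. HCT116 and COLO205 were derived from colorectal cancer, and MDAMB231 from breast cancer. Each line was given 500 nM ML-792 or DMSO for 16 h, and HCT116 was also given either for 3.5 h, with or without heat shock. The heat shock regimen was 2 h of exposure, 0.5 h at 43 °C and 1 h of recovery at 37 °C, with ML-792 or DMSO present throughout. This made 10 groups of 3 libraries, called biological triplicates in the labels. The labels name no genetic change in these groups, and each line stands for 1 tumour.

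SUMO is a small protein that cells attach to lysines of other proteins through an enzyme cascade that starts with the activating enzyme (SAE1 with UBA2) and ends with ligases such as the PIAS proteins. SUMO proteases cut the attached protein off again, and some also trim SUMO precursors into the form that can be attached, so the pool of conjugates depends on both sides of the cycle. SENP1 and SENP2 mature precursors and remove SUMO from many targets. SENP3 and SENP5 reside mainly in the nucleolus and act on SUMO2 and SUMO3, while SENP6 and SENP7 shorten chains of SUMO2 and SUMO3. USPL1 is a SUMO isopeptidase of Cajal bodies, outside the SENP family, and DESI2 belongs to yet another protease family with DESI1.

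The stretches before the gene start are printed here for members called after heat shock both in DMSO and in ML-792, where available. SENP1 was called higher in both and DESI2 lower in both, while SENP6 was called higher in DMSO and lower in ML-792. USPL1, called higher in both, had no entry and is not printed. The RefSeq promoter table (GRCh38.p14) had entries for 5 of the 8 members: SENP1, SENP3, SENP5, SENP6 and DESI2. Printed are the 250 bases before the start, 5′ to 3′ on the gene's strand, for SENP1 (chr12:48106080-48106329, minus strand, the most upstream of its 3 listed starts), SENP6 (chr6:75601630-75601879, plus strand) and DESI2 (chr1:244652876-244653125, plus strand). Capitals mark GGGCGG or its complement CCGCCC, the core of a GC box.
SENP1: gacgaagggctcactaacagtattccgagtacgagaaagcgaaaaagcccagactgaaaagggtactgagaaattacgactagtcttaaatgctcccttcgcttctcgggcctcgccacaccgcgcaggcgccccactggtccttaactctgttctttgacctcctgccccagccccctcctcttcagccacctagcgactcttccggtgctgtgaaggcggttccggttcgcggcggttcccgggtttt
SENP6: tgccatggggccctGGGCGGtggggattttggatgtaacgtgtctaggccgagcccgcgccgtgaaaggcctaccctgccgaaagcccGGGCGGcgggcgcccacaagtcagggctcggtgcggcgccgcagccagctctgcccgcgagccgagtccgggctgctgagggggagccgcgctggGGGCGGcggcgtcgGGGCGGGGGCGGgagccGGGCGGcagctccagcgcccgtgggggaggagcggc
DESI2: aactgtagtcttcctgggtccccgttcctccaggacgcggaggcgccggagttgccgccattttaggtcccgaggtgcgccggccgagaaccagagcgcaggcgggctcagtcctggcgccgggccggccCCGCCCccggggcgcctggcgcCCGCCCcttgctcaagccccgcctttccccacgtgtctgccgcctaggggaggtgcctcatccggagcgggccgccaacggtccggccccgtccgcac
The SENP6 stretch held 6 copies of this motif (2 of them adjoin) and the DESI2 stretch held 2, while the SENP1 stretch held 0. Of the other SENP1 starts, the stretch before one (chr12:48105856-48106105) held 2 copies and the other held 0. The motif was present in 42.6% of 35116 RefSeq stretches of the same length. A pair of inverted heat shock half-sites, GAANNTTC or TTCNNGAA (each its own reverse complement), was found in 0 of the 7 stretches of the 5 members and in 11.6% of all. The letters CCAAT, searched on both strands, were likewise in 0 of the 7, against 32.0% of all. These are matches of letters in 1 window per start. The 3 SENP1 windows overlap one another, so the 7 stretches are not separate.

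Depth was estimated from the steps between low FPKM values. In M (mega) fragments it was 27.1 to 34.8 at 16 h, 37.0 to 54.9 after heat shock and 48.5 to 73.5 at 3.5 h without heat shock. The lowest member value of a library stood for 45.8 to 164 fragments per kilobase of transcript. Replicates correlated at a Pearson r of at least 0.996 across genes. The median SD of log2(FPKM + 1) between replicates was 0.0975 (DMSO) and 0.117 (ML-792) after heat shock, against 0.0422 and 0.0446 without it. Of 6 markers of colorectal epithelium, 3 reached a mean of 1 FPKM in HCT116, where VIL1 and LGALS4 lay under 0.1, and 4 did in COLO205. MDAMB231 had 1 of these 6. All 4 mesenchymal markers reached that level in MDAMB231 (summed 1228 to 1499 FPKM) and in HCT116 (123 to 260), and 1 of 4 in COLO205 (3.14 to 7.98). The leukocyte marker PTPRC lay under 0.1 FPKM in all 3 lines. Of the endothelial pair, CDH5 did too, and the pair summed to at most 0.0297 FPKM in HCT116, 0.00764 in COLO205 and 0.382 in MDAMB231. Of 3 fibroblast markers, 2 reached 1 FPKM in MDAMB231, 1 in HCT116 and 0 in COLO205. In bulk RNA, fewer cells expressing a gene and less RNA per cell cannot be told apart.

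USPL1 had by far the widest range of the 8 members. It ran from 3.17 FPKM in an MDAMB231 library to 80.8 FPKM in a heat shocked HCT116 library, a ratio of 25.5. SENP6 followed with a ratio of 5.24 between its highest and lowest library, and SENP5 varied least, with a ratio of 1.38. SENP7 was the lowest member in each HCT116 and COLO205 group, at group means of 1.48 to 4.18 FPKM. In MDAMB231 it lay next to USPL1, the lowest there, at 3.90 ± 0.280 against 3.45 ± 0.244 FPKM with DMSO (SD, n = 3 throughout). The member sum was 68.0 ± 1.40 FPKM in MDAMB231, 80.1 ± 4.56 in HCT116 and 103 ± 2.32 in COLO205 with DMSO at 16 h.

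**Figure D1:**
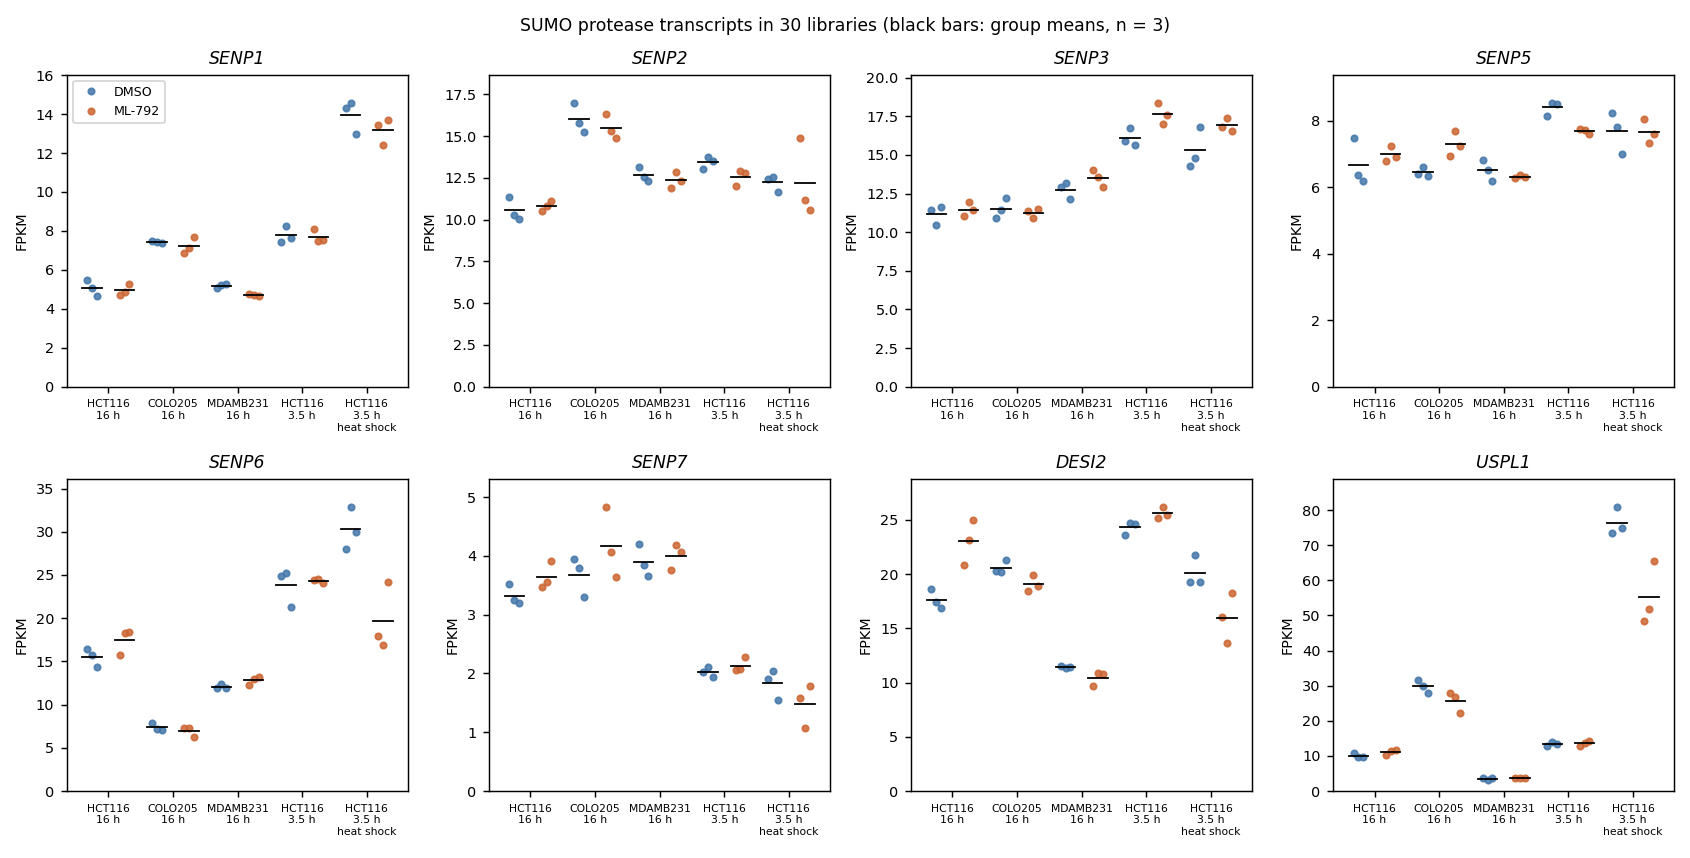
FPKM of each SUMO protease in every library, 1 panel per gene with its own axis from 0, by group. Points are libraries (blue DMSO, orange ML-792) and black bars are group means (n = 3). USPL1 reaches 73.6 to 80.8 FPKM in heat shocked HCT116 with DMSO, and SENP1 13.0 to 14.6.

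The lines were first compared without drug, in DMSO at 16 h. The largest difference was in USPL1. Its 3 libraries read 31.5, 30.0 and 28.0 FPKM in COLO205, 11.0, 9.78 and 9.58 in HCT116, and 3.58, 3.17 and 3.61 in MDAMB231. The lines did not overlap, and the order was COLO205, HCT116, MDAMB231. On the log2(FPKM + 1) scale used for all changes below, USPL1 was 1.47 ± 0.08 (SE) higher in COLO205 than in HCT116 and 1.32 lower in MDAMB231 (-1.32 ± 0.08). Both passed limma's test with Benjamini-Hochberg adjustment over all genes (adjusted p = 1.85e-12 and 1.06e-11). Between MDAMB231 and COLO205 the difference was -2.79 ± 0.08 (adjusted p = 9.55e-17), the largest of any member in any comparison.

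SENP6, a chain-editing protease, had another order. HCT116 libraries read 16.4, 15.8 and 14.4 FPKM, MDAMB231 libraries 11.9 to 12.4, and COLO205 libraries 7.91, 7.20 and 7.10. COLO205 thus held less than HCT116 (ratio of means 0.476, log2 difference -0.98 ± 0.07, limma adjusted p = 1.59e-10). Its relative SENP7 spanned 3.20 to 4.20 FPKM over the same 9 libraries, with overlap between neighbouring lines. SENP7 was called higher in MDAMB231 than in HCT116 (0.18 ± 0.08, limma adjusted p = 0.0352). That call was lost without HCT116 DMSO library 2 or 3 or MDAMB231 DMSO library 1 or 2 (adjusted p = 0.0858, 0.0955, 0.144 and 0.0575), without the filter (0.0509) and in 1 fit of all 30 libraries (0.0652), while with median-of-ratios scaling the difference was 0.27 (0.00353).

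SENP1 and SENP2, the proteases of broad action, were both highest in COLO205. SENP1 read 7.48, 7.44 and 7.39 FPKM there, 5.48, 5.07 and 4.68 in HCT116 and 5.08, 5.23 and 5.25 in MDAMB231. HCT116 and MDAMB231 overlapped and COLO205 stood above both (0.48 ± 0.05 over HCT116, limma adjusted p = 1.25e-07). SENP1 between MDAMB231 and HCT116 was not called (0.03 ± 0.05, 95% confidence interval -0.08 to 0.14), though it was with median-of-ratios scaling (0.13, adjusted p = 0.0309) and equal totals (0.13, 0.0387). SENP2 means were 16.0 ± 0.894 FPKM in COLO205, 12.7 ± 0.434 in MDAMB231 and 10.6 ± 0.707 in HCT116. All 3 pairs of lines differed in SENP2 (limma adjusted p = 1.54e-08, 0.000366 and 2.41e-05 for COLO205 over HCT116, MDAMB231 over HCT116 and MDAMB231 under COLO205). The last was -0.31 ± 0.05, and -0.20 with equal totals.

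DESI2 read 20.3, 20.2 and 21.3 FPKM in COLO205, 18.6, 17.4 and 16.9 in HCT116, and 11.5, 11.3 and 11.5 in MDAMB231. These did not overlap, and MDAMB231 held 0.649 times the HCT116 mean (-0.58 ± 0.06, limma adjusted p = 3.96e-08). Of the nucleolar pair, SENP5 was called in none of the 3 comparisons: its means were 6.45 to 6.68 FPKM and the 95% confidence intervals of the log2 differences lay within -0.16 to 0.13. SENP3 was higher in MDAMB231 (12.7 ± 0.544 FPKM) than in HCT116 (11.2 ± 0.627; 0.18 ± 0.05, limma adjusted p = 0.00467; 0.29 with equal totals). It was also called above COLO205 (11.5 ± 0.662, 0.13 ± 0.05, adjusted p = 0.0232). That call was lost without COLO205 DMSO library 1 or 2 or MDAMB231 DMSO library 1 or 2 (0.117, 0.0549, 0.0657 and 0.0886), and with equal totals the difference was 0.25 (0.000279). SENP3 is uncertain in all comparisons, since a separate row for the read-through gene SENP3-EIF4A1, at 307 to 956 FPKM by group mean, shares SENP3 sequence. No row was named EIF4A1, and how fragments were split between these genes is not known. The level of that row thus cannot be taken as read-through alone.

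In all, 5 of 8 members differed between COLO205 and HCT116 (84.9% of 14251 genes tested did), 6 of 8 between MDAMB231 and HCT116 (83.6%) and 6 of 8 between MDAMB231 and COLO205 (86.4%). With median-of-ratios scaling, SENP3 (0.14, limma adjusted p = 0.0200) and SENP7 (0.19, 0.0283) were also called higher in COLO205 than in HCT116. That setting called 12075 of 14297 genes. Of 20 other SUMO pathway genes, 7 were higher and 11 lower in COLO205 than in HCT116, led by SUMO2 (-1.26 ± 0.05), the activating enzyme subunit SAE1 (-0.72 ± 0.03) and the ligase PIAS2 (-0.98 ± 0.05). In MDAMB231 against HCT116, 6 were higher and 12 lower, led by SUMO3 (2.47 ± 0.05), the ligase NSMCE2 (-1.95 ± 0.07) and SAE1 (-0.77 ± 0.03). Against COLO205, MDAMB231 had 11 higher and 8 lower, led by SUMO3 (1.81 ± 0.05) and NSMCE2 (-2.38 ± 0.07). The member medians were 0.16, 0.00 and -0.15, beside -0.06, -0.07 and -0.02 over all genes tested.

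**Figure D2:**
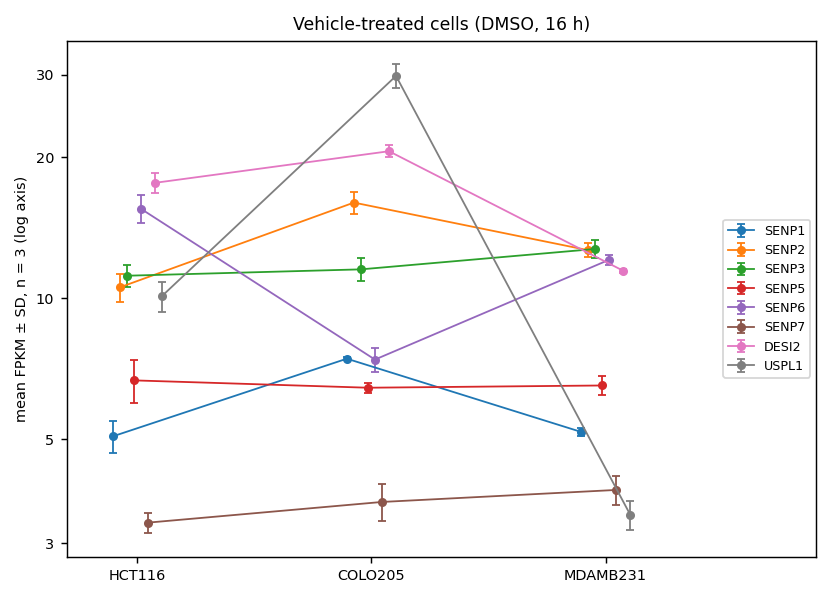
Mean FPKM of the 8 proteases in the 3 lines with DMSO at 16 h on a log axis, with SD as bars (n = 3 per line) and lines joining the means of a gene. USPL1 separates the cell lines most, at 29.8 FPKM in COLO205 against 3.45 in MDAMB231, while SENP5 lies at 6.45 to 6.68 in all 3.

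The 16 h experiment asked what inhibition of the activating enzyme does to transcripts. Across lines and times, 6 of 40 member values (8 genes in 5 comparisons of ML-792 with DMSO) passed the test, beside 20.9% of the 67135 values of all genes. In HCT116 at 16 h, 1 of 8 members was called, against 14.7% of all genes tested. This was DESI2, which read 20.9, 23.2 and 25.0 FPKM with ML-792 and 18.6, 17.4 and 16.9 with DMSO. The groups did not overlap, and DESI2 rose by 0.36 ± 0.06 (limma adjusted p = 0.000405, ratio of means 1.31). By size of rise it ranked 284 of 14251 genes. SENP6 read 15.8, 18.3 and 18.4 FPKM with ML-792 against 16.4, 15.8 and 14.4 with DMSO. These overlapped, and SENP6 was not called (0.16 ± 0.07, adjusted p = 0.121) except without ML-792 library 1 (0.23, 0.0240). The other 6 lay between -0.03 and 0.13, and the member median was 0.08 beside 0.00 over all genes.

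In COLO205, 2 of 8 members were called (37% of all genes tested). USPL1 read 27.9, 26.9 and 22.3 FPKM with ML-792 and 31.5, 30.0 and 28.0 with DMSO. The groups were narrowly apart, and USPL1 fell by 0.21 on the log2 scale (-0.21 ± 0.08, limma adjusted p = 0.0366). Without ML-792 library 3, the lowest, the change was -0.12 (adjusted p = 0.219), and the call was also lost without DMSO library 1 or 2 (0.137 and 0.0875), with no filter (0.0621), equal totals (0.0509) or 1 fit of all 30 libraries (0.0635). SENP5 read 6.95, 7.69 and 7.23 FPKM with ML-792 and 6.39, 6.62 and 6.32 with DMSO, and was called higher (0.15 ± 0.06, adjusted p = 0.0406). That call was lost without ML-792 library 2 or 3 or any DMSO library (adjusted p = 0.163, 0.0697, 0.0932, 0.0566 and 0.112) and with no filter (0.0542) or under both other scalings (0.0578 and 0.0946). SENP7 was called without ML-792 library 3 (0.22, adjusted p = 0.0352) but not with it (0.14, 0.158).

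DESI2, higher with ML-792 in HCT116, read 18.5, 19.9 and 18.9 FPKM with ML-792 in COLO205, all below the DMSO libraries at 20.3, 20.2 and 21.3. The log2 change was -0.11 ± 0.06 and was not called (limma adjusted p = 0.179). DESI1, the paralog of DESI2, was called in COLO205, from 18.2 ± 0.636 FPKM with DMSO to 13.6 ± 1.16 with ML-792 (-0.41 ± 0.05, adjusted p = 8.6e-06).

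In MDAMB231, 0 of 8 members were called by limma (16.9% of all genes tested), and 1, SENP1, had an unadjusted p under 0.05. SENP1 read 4.74, 4.70 and 4.68 FPKM with ML-792 and 5.08, 5.23 and 5.25 with DMSO (-0.12 ± 0.05, adjusted p = 0.153). DESI2 read 9.65, 10.9 and 10.8 FPKM against 11.5, 11.3 and 11.5, again without overlap (-0.12 ± 0.06, adjusted p = 0.176). USPL1 lay higher with ML-792, also without overlap, at 3.70, 3.63 and 3.85 FPKM against 3.58, 3.17 and 3.61 (0.09 ± 0.08, adjusted p = 0.521). The share of all genes without overlap was not counted here. All member changes in this line lay between -0.12 and 0.09.

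The difference between lines was tested directly, as the change with ML-792 in one line minus that in another. For DESI2 it was -0.47 ± 0.08 for COLO205 minus HCT116 (limma adjusted p = 0.000684) and -0.49 ± 0.08 for MDAMB231 minus HCT116 (0.000799). Between MDAMB231 and COLO205 it was -0.02 ± 0.08, with a 95% confidence interval of -0.19 to 0.16. Counts of members called were 2 of 8 (19.4% of all genes), 1 of 8 (10.8%) and 1 of 8 (26%) for these 3 differences. The DESI2 calls were kept under every alternative run.

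USPL1 made up the remaining calls, at -0.34 ± 0.11 for COLO205 minus HCT116 (limma adjusted p = 0.0348) and 0.30 ± 0.11 for MDAMB231 minus COLO205 (0.0496). The first was lost without HCT116 ML-792 library 2 or 3, HCT116 DMSO library 2 or 3, COLO205 ML-792 library 3, or COLO205 DMSO library 1 or 2 (adjusted p from 0.0663 to 0.0879), and with no filter (0.0576), equal totals (0.0817) or 1 fit of all 30 libraries (0.0607). The second was lost without COLO205 ML-792 library 3, COLO205 DMSO library 1 or 2, or any MDAMB231 library (0.0554 to 0.127), and under 5 other settings (0.0509 to 0.0840). SENP6 was called for COLO205 minus HCT116 without HCT116 ML-792 library 1 (-0.31, 0.0238) but not with it (-0.24, 0.0929).

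Of the 20 other SUMO pathway genes at 16 h, 3 rose and 0 fell with ML-792 in HCT116, led by SUMO3 (1.30 ± 0.05) and SUMO2 (0.44 ± 0.05). In COLO205, 6 rose and 3 fell, led by SUMO3 (1.01 ± 0.05), SUMO2 (0.84 ± 0.05) and the ligase PIAS3 (-0.41 ± 0.05). In MDAMB231, 2 rose and 0 fell, namely SUMO3 (0.23 ± 0.05) and SUMO2 (0.18 ± 0.05). The change differed between lines for 4 of the 20 (COLO205 minus HCT116), 3 (MDAMB231 minus HCT116) and 6 (MDAMB231 minus COLO205), and SUMO3 and SUMO2 were among the called in each.

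**Figure D3:**
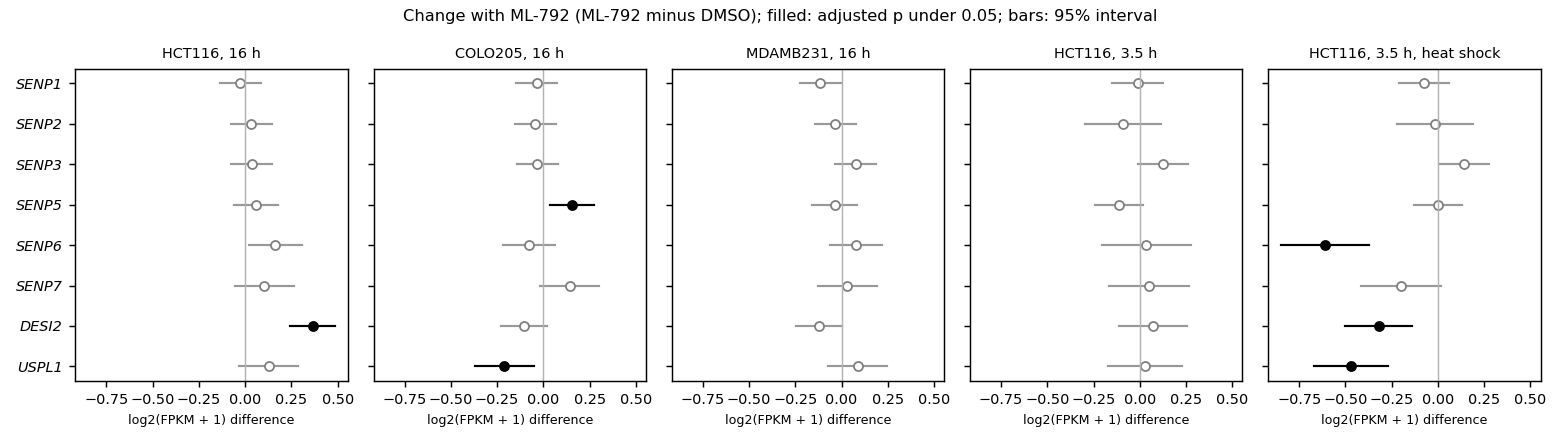
Change with ML-792 against DMSO for each protease, as a log2 difference of FPKM + 1 with its 95% confidence interval, in the 5 comparisons (n = 3 per group); filled points passed limma's adjusted p of 0.05. DESI2 is higher in HCT116 at 16 h (0.36), and SENP6 (-0.61), USPL1 (-0.47) and DESI2 (-0.32) are lower after heat shock. The intervals after heat shock pool the spread of unheated libraries, which varied less.

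After 3.5 h of ML-792 without heat shock, 0 of 8 members were called by limma, and 0 had an unadjusted p under 0.05 (1.21% of 12191 genes tested were called). DESI2 read 25.1, 26.2 and 25.5 FPKM with ML-792 and 23.6, 24.7 and 24.6 with DMSO. All 3 ML-792 libraries lay above the DMSO libraries, with a log2 change of 0.07 ± 0.08 (95% confidence interval -0.11 to 0.25). This SE and interval pool the spread of the heat shocked libraries of 3.5 h, which varied more. The DESI2 SD was 1.45 (DMSO) and 2.31 FPKM (ML-792) with heat shock, and 0.606 and 0.525 without. SENP3 (0.13 ± 0.06) and SENP5 (-0.11 ± 0.06) were the members farthest from 0. Neither overlapped between treatments: all ML-792 libraries lay above DMSO for SENP3 and below it for SENP5. SENP2 (-0.09 ± 0.09) also lay below DMSO without overlap. The share of all genes without overlap was not counted here. Of the other 20 pathway genes SUMO3 alone was called (0.38 ± 0.07, adjusted p = 0.013).

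The change with ML-792 at 16 h minus that at 3.5 h was called for 0 of 8 members by limma (2.4% of 12462 genes), and 1 had an unadjusted p under 0.05. This was DESI2 (0.29 ± 0.08, adjusted p = 0.0719), which passed without HCT116 ML-792 library 1 (0.36, 0.00799) or HCT116 DMSO library 1 (0.33, 0.0363) of 16 h. SENP5 passed without the same DMSO library (0.25, 0.0345; 0.17 with it). SUMO3 was again the 1 of 20 called (0.92 ± 0.07). The same cells differed in level between the experiments: with DMSO, 7 of 8 members had all 3 libraries of 3.5 h above those of 16 h (43.1% of 12462 genes did), at ratios of means from 1.26 for SENP5 to 1.53 for SENP1. SENP7 was lower, as were 37.9% of genes without overlap, at 2.03 ± 0.0827 FPKM against 3.32 ± 0.169 (ratio 0.610). Duration and experiment cannot be told apart in these levels, which were not tested. The same holds for the change with ML-792 at 16 h minus that at 3.5 h.

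Heat shock was then compared with none in HCT116. The heat shock labels matched the chaperone transcripts, with HSPH1 rising from 122.7 to 1022 FPKM in DMSO and from 175.6 to 1033 in ML-792. In DMSO, 4 of 8 proteases were called (49.5% of all genes tested), and in ML-792 5 of 8 (61.7%). Member medians were -0.08 and -0.05, beside 0.05 and 0.10 over all genes. Heated and unheated libraries carry separate runs of library identifiers, so heat and library handling cannot be told apart.

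USPL1 rose most. In DMSO its libraries read 12.7, 13.8 and 13.5 FPKM without heat shock and 73.6, 80.8 and 75.0 with it. The groups lay far apart, at a ratio of means of 5.73 (log2 change 2.43 ± 0.09, limma adjusted p = 3.8e-10). By size of rise it ranked 47 of 12191 genes. In ML-792 the unheated libraries read 12.9, 13.7 and 14.2 FPKM and the heated ones 48.4, 51.8 and 65.6. The ratio was 4.06 (1.93 ± 0.09, adjusted p = 4.35e-09, rank 79). With heat shock USPL1 was the highest of the 8 members, and it made the sum of members 178 ± 8.24 FPKM in DMSO and 142 ± 14.0 in ML-792, against 109 ± 3.52 and 111 ± 0.432 without.

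SENP1 rose in both treatments by similar amounts. It read 7.42, 8.24 and 7.66 FPKM in DMSO and 14.3, 14.6 and 13.0 after heat shock (0.77 ± 0.06, limma adjusted p = 7.13e-07, ratio 1.79). In ML-792 it read 8.11, 7.47 and 7.53 FPKM and 13.4, 12.4 and 13.7 (0.70 ± 0.06, adjusted p = 1.44e-06, ratio 1.71). Heated and unheated SENP1 libraries did not overlap in either treatment, while DMSO and ML-792 libraries overlapped with and without heat. Its partner SENP2 was called in neither treatment, at -0.13 ± 0.09 and -0.05 ± 0.09. In ML-792 with heat shock SENP2 had the widest spread, at 14.9, 11.2 and 10.6 FPKM, and without the first of these it was called lower (-0.19, adjusted p = 0.0137).

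The chain-editing SENP6 was called in opposite directions in DMSO and ML-792. It read 24.9, 25.2 and 21.3 FPKM in DMSO and 28.0, 32.8 and 29.9 after heat shock, which was called higher (0.34 ± 0.11, limma adjusted p = 0.0239). The call was lost without heated library 2 (0.28, 0.0928) or unheated library 3 (0.26, 0.104), with no filter (0.0528) and under median-of-ratios scaling (0.26, 0.0761). At equal totals the change was 0.10 (0.504). In ML-792 SENP6 read 24.4, 24.5 and 24.0 FPKM and then 17.9, 16.9 and 24.2. Here 2 of the 3 heated libraries lay below all unheated ones and heated library 3 among them. The fall (-0.31 ± 0.11, adjusted p = 0.0279) was lost without heated library 1 or 2 (0.0959 and 0.114) or any unheated library (0.0647, 0.0665 and 0.0569), and with no filter (0.0570), while with equal totals it was -0.59 (0.00144). SENP7 read 2.02, 2.11 and 1.95 FPKM in DMSO and 1.91, 2.04 and 1.55 after heat shock, with overlap (-0.10 ± 0.10, not called). In ML-792 it went from 2.06, 2.07 and 2.27 FPKM to 1.58, 1.07 and 1.78, without overlap (-0.35 ± 0.10, adjusted p = 0.00873). Without heated library 2 the SENP7 fall was -0.22 (0.0285). The 2 SENP7 changes were not shown to differ (-0.25 ± 0.14, adjusted p = 0.239).

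DESI2 fell in both. It read 23.6, 24.7 and 24.6 FPKM in DMSO and 19.3, 21.8 and 19.3 after heat shock (-0.26 ± 0.08, limma adjusted p = 0.0197). In ML-792 it read 25.1, 26.2 and 25.5 FPKM and 16.1, 13.6 and 18.2 (-0.66 ± 0.08, adjusted p = 3.15e-05, ratio 0.624). Heated and unheated DESI2 libraries did not overlap in either treatment. The DMSO call was lost without heated library 1 or 3 (0.0590 and 0.0594) or unheated library 2 or 3 (0.0606 and 0.0566). The nucleolar SENP3 and SENP5 were called in neither treatment (-0.07 ± 0.06 and -0.12 ± 0.06 in DMSO, -0.06 ± 0.06 and -0.01 ± 0.06 in ML-792). SENP5 passed in DMSO without heated library 1 (-0.16, 0.0449). Under median-of-ratios scaling SENP5 was called lower in DMSO (-0.19, 0.0224) and SENP3 was called lower in ML-792 (-0.17, 0.0310). With libraries scaled to equal totals, SENP2, SENP3 and SENP5 were called lower in both treatments, as the median of all genes moved to -0.16 in each. On that scale the DESI2 change in DMSO was -0.49 (0.00182) and the SENP1 change in ML-792 was 0.43 (0.00175).

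**Figure D4:**
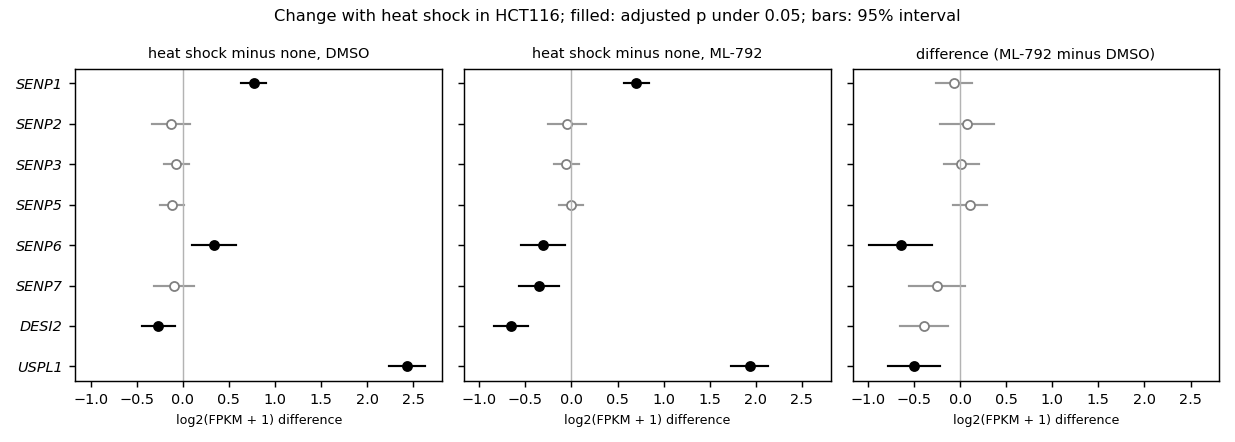
Change with heat shock against none in HCT116 at 3.5 h for each protease, as a log2 difference of FPKM + 1 with its 95% confidence interval (n = 3 per group), in DMSO, in ML-792 and as the difference of the 2 changes; filled points passed limma's adjusted p of 0.05. USPL1 (2.43 and 1.93) and SENP1 (0.77 and 0.70) are higher in both, and SENP6 is on opposite sides of 0 (0.34 and -0.31).

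Within heat shocked cells, 3 of 8 members were called for ML-792 against DMSO, 3 lower and 0 higher (33.5% of all genes were called, 15.1% lower and 18.4% higher). SENP6 was at 0.650 times its DMSO mean (-0.61 ± 0.11, limma adjusted p = 0.00338) and USPL1 at 0.723 times (-0.47 ± 0.09, 0.00437). DESI2 was at 0.795 times (-0.32 ± 0.08, 0.0146), a call lost without DMSO heat shock library 2 (-0.26, 0.0721). Groups did not overlap for these 3 genes, and in each ML-792 library 3 lay nearest the DMSO libraries. The SEs and p-values here pool the spread of unheated libraries, which varied less. The median SD of log2(FPKM + 1) was 0.0975 (DMSO) and 0.117 (ML-792) with heat shock, against 0.0422 and 0.0446 without. The SEs may thus be too small for a contrast between heated groups, and a fit of heated libraries alone was not made. SENP3 was called higher without DMSO heat shock library 3 (0.20, 0.0146), and SENP7 lower without ML-792 heat shock library 3 (-0.29, 0.0377). With all libraries of 3.5 h neither was called (0.14 ± 0.06 and -0.20 ± 0.10). In 1 fit of all 30 libraries SENP3 was called higher (0.14, 0.0477). The member median was -0.14 beside 0.06 over all genes.

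The test of whether the heat shock change differed with ML-792 called 2 of 8 members, 2 lower and 0 higher (6.41% of all genes were called, 3.93% lower and 2.48% higher). They were SENP6 (-0.64 ± 0.16, limma adjusted p = 0.0366) and USPL1 (-0.50 ± 0.13, 0.0435). Both calls were lost without DMSO heat shock library 2, ML-792 heat shock library 1 or 2, or any unheated library, with adjusted p from 0.0511 to 0.105 for SENP6 and 0.0541 to 0.120 for USPL1. They were also lost with no filter (0.0836 and 0.0898) and equal totals (0.0575 and 0.0621). For DESI2 the difference was -0.39 ± 0.12 (0.0602), and it passed without DMSO heat shock library 3 (0.0456) or ML-792 heat shock library 3 (-0.49, 0.00746). It also passed in 1 fit of all 30 libraries (-0.39, 0.0118). SENP1 had a difference of -0.06 ± 0.09, with a 95% confidence interval of -0.26 to 0.13.

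Of the 20 other pathway genes, 5 rose and 2 fell with heat shock in DMSO, led by the ligase PIAS4 (-0.63 ± 0.07) and the SUMO-targeted ubiquitin ligases RNF111 (-0.51 ± 0.06) and RNF4 (0.39 ± 0.05). In ML-792, 6 rose and 4 fell, led by RNF111 (-0.50 ± 0.06), RNF4 (0.40 ± 0.05) and RWDD3 (-0.61 ± 0.09), an enhancer of SUMO conjugation. Within heat shocked cells, ML-792 raised 4 and lowered 2, with RWDD3 (-0.46 ± 0.09) and DESI1 (0.22 ± 0.06) among them. The interaction was called for 0 of the 20 by limma, with 6 at an unadjusted p under 0.05. SENP8, a protease of the SENP family that acts on NEDD8 and not on SUMO, fell with heat shock in DMSO (-0.36 ± 0.08) and in ML-792 (-0.56 ± 0.08).

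Across the 10 group means, SENP1 and USPL1 had a Pearson r of 0.90 on the log2 scale, the highest of any member pair. SENP7 ran opposite to SENP3 (-0.86) and SENP1 (-0.82). These are descriptions over 10 points that share libraries and the experiment difference. Among 8054 named genes with a mean of at least 5 FPKM, the closest in pattern to USPL1 were EMC4 (r = 0.99) and RPL39 (0.98), and to SENP6 VPS37A and TRMT5 (both 0.99). They were WDR53 and PUS3 for SENP1 (both 0.98), ERP44 and METTL9 for SENP2 (both 0.97) and MRPL17 and RRP7A for SENP3 (both 0.97). SENP5 had the least close ones, EFCAB14 (0.95) and HNRNPR (0.94). For SENP7 they were RCOR3 and FCHO2, and for DESI2 TUBD1 and OXSM (all 0.97).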

How the data were processed

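Polyadenylated RNA was sequenced from 30 libraries, made per the labels with a stranded mRNA kit and planned at 30 M (mega) paired 50-base reads. The authors deposited FPKM per gene in 1 table. DESeq2 1.10.1 appears, with no role, in the submitters' processing notes. Aligner, build and annotation were not given in the sources used here. Groups came from line, treatment, time and heat shock in the labels.

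Tests used limma 3.58.1 in R 4.3.3 (eBayes, trend and robust). Values were log2(FPKM + 1), and a gene needed 1 FPKM in 3 or more libraries of its fit. The 3 fits held the 18 libraries of 16 h, the 12 of 3.5 h, and the 12 HCT116 libraries without heat shock. This scale understates changes of low genes. A call is an adjusted p below 0.05 (Benjamini-Hochberg, all genes tested in the comparison), and 15 comparisons were made. The method was tested on simulated data with the same spread in every group, on contrasts without heat shock. Such data could not show how the unequal spread of heated and unheated libraries affects the p-values. P-values set a difference against 1 spread per gene, pooled from the triplicates of all groups of the fit and moderated over genes. The fit of 3.5 h pools heated with unheated libraries, though the heated ones varied more. Alternatives were pseudocounts of 0.25 and 5, no filter or 5 FPKM, median-of-ratios scaling, FPKM rescaled to equal library totals, 1 fit of all 30 libraries, eBayes without trend or robust, and each library left out. Named were all members, up to 3 called pathway genes with the smallest adjusted p per comparison, DESI1, SENP8, and the 2 closest genes by Pearson r over group means. Some genes that this rule names are not reported here. Members and lists were chosen with earlier results of these data known. Depth came from the steps of low FPKM values, scaled with 1414 single-transcript GENCODE genes over 1500 bases.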

Additional observations from a re-analysis of the deposited data

Results flagged for a closer look

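The change with ML-792 at 16 h differed between lines for DESI2, at -0.47 for COLO205 minus HCT116 and -0.49 for MDAMB231 minus HCT116, and for USPL1, at -0.34 for COLO205 minus HCT116 and 0.30 for MDAMB231 minus COLO205. The change with heat shock differed between ML-792 and DMSO for SENP6 (-0.64) and USPL1 (-0.50). Each is listed because a limma test of the difference itself passed the adjusted threshold. Only the DESI2 calls were kept under every alternative run. The USPL1 and SENP6 calls were each lost under 10 to 14 of 20 alternatives. Groups of 3 libraries were not searched for single libraries that stand apart.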

How the results depend on the processing

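Of 120 member values (8 genes in 15 comparisons) 38 were called. Under every alternative run 26 of these were kept, 12 were lost under at least 1, and 0 reversed; of the 82 not called, 17 passed under at least 1. No paired analysis was possible because replicates are not numbered in the labels and nothing pairs libraries across groups. Members called with ML-792 in COLO205 (2) were 0 with no filter and with equal totals, and 1 with median-of-ratios scaling and with 1 fit of all 30 libraries. For COLO205 minus HCT116 (2) they were 1 with no filter, equal totals and the fit of all 30. For MDAMB231 minus COLO205 (1) they were 0 with a pseudocount of 0.25, no filter, equal totals, the fit of all 30 and eBayes without trend or robust. For heat shock in ML-792 (5) they were 8 with equal totals, and for the heat shock interaction (2) they were 0 with no filter and equal totals. With 1 library left out, member counts ran from 1 to 2 for ML-792 in HCT116 at 16 h, 0 to 2 in COLO205, 1 to 3 for COLO205 minus HCT116, 0 to 1 for MDAMB231 minus COLO205, 2 to 4 for heat shock in DMSO, 0 to 3 for the interaction and 0 to 2 for 16 h minus 3.5 h. The causes were not tested.

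Among all genes, the heat shock split of 3526 higher and 2507 lower in DMSO became 2556 and 3299 under median-of-ratios scaling, or 1427 and 5151 at equal totals. In ML-792 it went from 4796 and 2721 to 3279 and 3674, and to 1687 and 5437. Genes called for the interaction (781) numbered 211 with no filter, 260 with equal totals and 2511 in the fit of all 30 libraries. That fit also called 263 genes for ML-792 at 3.5 h (147) and 150 for 16 h minus 3.5 h (299).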

Other observations

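Genes next to the members in the RefSeq order were looked up after the heat shock values had been seen. HMGB1, beside USPL1, changed by 0.30 ± 0.14 in DMSO (limma adjusted p = 0.0890) and rose by 0.57 ± 0.14 in ML-792 (0.00327), against 2.43 and 1.93 for USPL1. ALOX5AP, on the other side, had group means of at most 0.170 FPKM. PFKM, beside SENP1, changed by 0.05 ± 0.05 in DMSO and rose by 0.16 ± 0.05 in ML-792 (adjusted p = 0.0116). COL2A1, on its other side, went from 0.0155 to 0.643 FPKM in DMSO and from 0.0131 to 0.777 in ML-792 and was below the filter. TRMT10C, a mitochondrial tRNA methyltransferase beside SENP7, fell in DMSO (-0.76 ± 0.08) and in ML-792 (-1.11 ± 0.08). LIPH, beside SENP2, rose in both (0.73 ± 0.08 and 0.52 ± 0.08), while SENP2 was not called.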
